A study of Mus musculus with 2 samples.

Results

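Sox2, Pitx1, Trp63 and Klf4 encode 4 transcription factors of squamous epithelium and squamous carcinoma, and they were taken as the probe sets that the platform annotation maps to exactly 1 of these genes. They had 9 probe sets among the 34945 probe sets with a single gene, and were 4 genes of 18193 in all. Gene expression had been measured on 1 Affymetrix Mouse Genome 430 2.0 array for a K14CreER:Rosa-VEGF-164 mouse and 1 for a wild-type mouse. Both were from tumour epithelial cells sorted for CD34, a surface antigen that marks a tumour-propagating fraction in this model. In the K14CreER:Rosa-VEGF-164 mouse a VEGF-164 transgene in the Rosa locus is to be switched on by an inducible Cre recombinase driven by the keratin 14 promoter, hence in basal keratinocytes and their progeny and not in the stroma. Both genotypes had received the carcinogen DMBA on postnatal days 23, 25 and 27 and again at 7 weeks of age, with the tumour promoter TPA given repeatedly. The sources used here do not say whether the wild-type mouse carried Cre, nor how many tumours or mice went into a sample. The comparison asks which transcripts of CD34-positive tumour cells differ when epidermal VEGF is gained.

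Sox2 is an HMG-box factor of embryonic and neural stem cells that normal interfollicular epidermis hardly uses and that squamous tumours can switch on. Pitx1 is a paired-type homeodomain factor known for specifying the hindlimb, and in squamous carcinoma it has been described at the same regulatory elements as Sox2 and p63. Trp63 encodes p63, the p53 relative that maintains the basal layer of stratified epithelia and is made in forms with and without an N-terminal transactivation domain. Klf4 is a zinc-finger factor of the suprabasal layers that drives barrier formation and, in squamous carcinoma, has been placed on the differentiation side against Sox2, Pitx1 and p63. All 4 roles are background and not results of these arrays.

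The promoter windows in the RefSeq table of build GRCm38.p6, 250 bases before to 50 after a gene's start, covered 2 of the 4 genes, Sox2 and Klf4. Their windows are shown because only these genes were covered. By their brightest probe sets they happen to be the genes whose log2 ratios between the arrays were the largest and the smallest in size. The Sox2 window lies on the plus strand at chr3:34649745-34650044 and the Klf4 window on the minus strand at chr4:55532426-55532725. Both are written 5′ to 3′ in the direction of transcription, and the capitals mark each GC box, the letters GGGCGG or their reverse complement CCGCCC, which factors of the Klf and Sp family can bind.
Sox2: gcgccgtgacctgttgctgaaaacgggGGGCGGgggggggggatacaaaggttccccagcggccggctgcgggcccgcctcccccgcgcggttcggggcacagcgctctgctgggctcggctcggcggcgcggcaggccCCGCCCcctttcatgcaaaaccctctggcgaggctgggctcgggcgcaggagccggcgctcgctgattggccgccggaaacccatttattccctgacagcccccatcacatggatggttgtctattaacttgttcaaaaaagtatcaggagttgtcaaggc
Klf4: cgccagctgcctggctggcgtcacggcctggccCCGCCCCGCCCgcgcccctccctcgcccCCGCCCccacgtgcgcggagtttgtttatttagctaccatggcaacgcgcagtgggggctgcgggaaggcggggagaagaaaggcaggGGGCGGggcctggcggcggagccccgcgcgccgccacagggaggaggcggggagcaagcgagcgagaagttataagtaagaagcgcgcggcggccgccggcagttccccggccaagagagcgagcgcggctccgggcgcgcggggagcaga
The Klf4 window held 4 GC boxes, of which the first 2 overlap by a shared base, and the Sox2 window held 2. A GC box was present in 35.7% of all 32851 windows of this length. The CACCC letters that Klf factors also recognise were found on neither strand of either window, against 57.5% of all windows. The letters ACAAAG, a core that Sox factors can bind, occurred 1 time in the Sox2 window (18.7% of all windows) and not in the Klf4 window. The E-box CACGTG occurred 1 time in the Klf4 window (7.15% of all windows), and CCAAT 1 time in the Sox2 window (37.4%). Both windows were rich in G and C, with 66.3% for Sox2 and 74.3% for Klf4 against a median of 52.7%, and held 27 and 40 CpG dinucleotides against a median of 7. Letter matches describe these windows and are not evidence of binding. The Pitx1 gene lies at chr13:55825044-55836190 and the Trp63 gene at chr16:25683763-25892088 of the same build.

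The values are MAS5 signals, which summarise each probe set on each array separately. With 1 array per genotype there was no replicate, no test and no p-value, and every ratio below describes these arrays. Background was set on each array at the 90th percentile of genes for olfactory and vomeronasal receptors (80 probe sets), which gave a signal of 11.3 on the VEGF array and 19.8 on the wild-type array. Of the named probe sets, 65.2% on the VEGF array and 58.3% on the wild-type array lay above it. As the only error at hand, the 2 brightest probe sets of a gene were compared in 4885 genes, which gave 1 probe set's log2 ratio an SD of 0.50 at low signal (lowest tertile), 0.42 at middle and 0.32 at high signal. It does not cover differences between mice, tumours or sorts. Vegfa, the gained gene, had a signal of 397 on the VEGF array against 804 on the wild-type array, so the genotype is taken from the label. It is not known here whether its probe sets read the transgene. In bulk samples such as these, fewer cells of a type and less RNA per cell cannot be told apart.

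All 9 probe sets of the 4 genes lay above background on both arrays. Sox2 and Pitx1 had higher signals on the VEGF array, and Trp63 had lower ones. Klf4, far above background, was nearly equal by its brighter probe set (log2 ratio 0.00) and somewhat higher by the other (0.40). The probe sets of Pitx1 went the same way as each other, as did those of Trp63, although their sizes differed. By their brightest probe sets, 2 of the 4 genes passed 2-fold on the higher side in the VEGF array and 0 on the lower side, as did 3.87% and 8.53% of the 12198 genes with a value. Among the 9 probe sets, 2 passed on the higher side (background 3.53% of 21515) and 1 on the lower side (background 10.3%). That background leans to the lower side mainly at low signal: it was 12.9% lower and 2.7% higher among probe sets of the lowest signal tertile, but 3.46% lower and 2.65% higher in the highest, where 6 of the 9 lie.

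**Figure D1:**
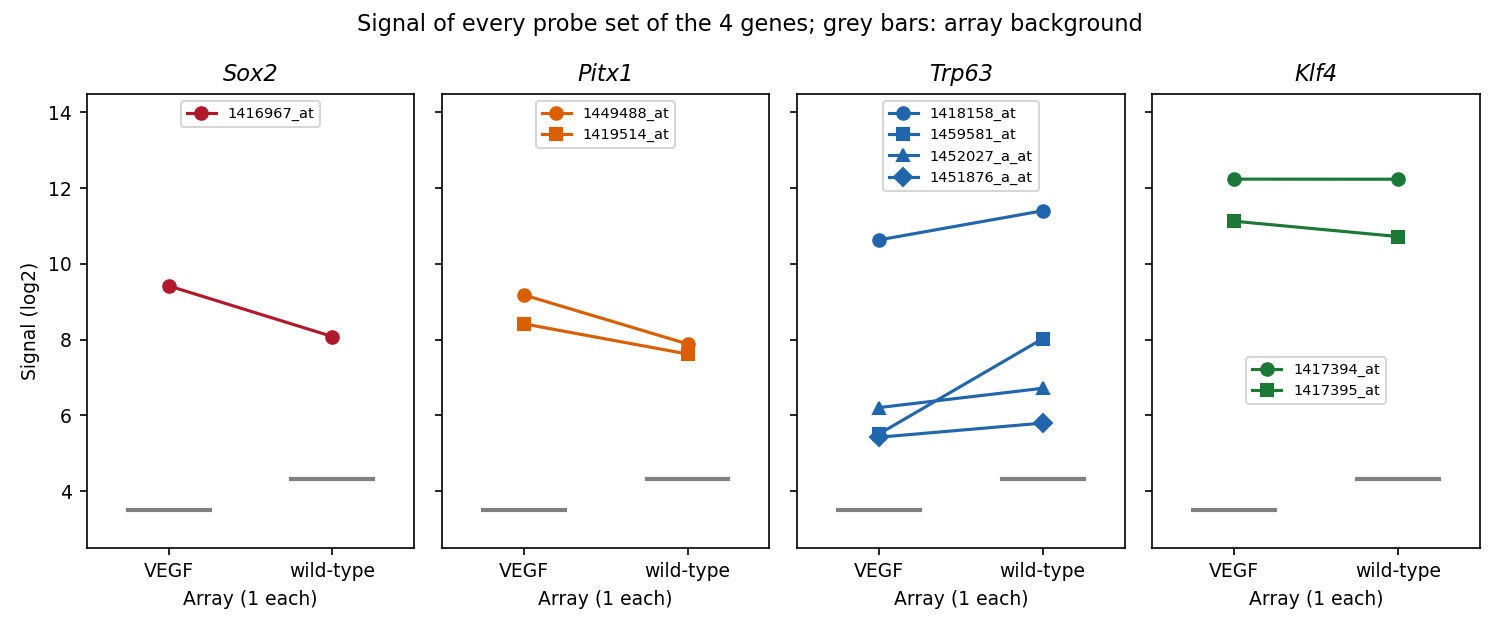
Log2 MAS5 signal (vertical axis) of each of the 9 probe sets on the VEGF array and the wild-type array (1 array each), with grey bars at the background of each array. Lines of Sox2 and Pitx1 slope down towards wild-type, all 4 Trp63 lines slope up, and the brighter Klf4 line is flat.

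Sox2 had a single probe set, 1416967_at, with a signal of 685 on the VEGF array against 271 on the wild-type array. It was 2.53-fold higher on the VEGF array, a log2 ratio of 1.34 where the SD between probe sets at this signal was 0.32. The signals were 60.4 times background on the VEGF array and 13.6 times background on the wild-type array, so neither value was near the floor. Across the 10 other processing settings the ratio ran between 1.26 and 1.54. Those that changed only the floor, the signal filter or the probe set choice left it at 1.34. No second probe set was there to check it. Sox2ot, the long non-coding RNA gene whose transcript spans Sox2, was read by 1460587_at at 3.34 on the VEGF array and 0.40 on the wild-type array, below background on both. It was added after its values were seen.

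Other skin cells also use Sox2, and markers of each were looked at on both arrays. Of 9 Merkel cell markers, 4 were above background on the VEGF array and 4 on the wild-type array, with summed signals of 1749 against 334. Of that list Krt18 (1153 against 126) and Krt8 (499 against 114), keratins that simple epithelia use too, made up most of the sum. The defining Merkel genes Krt20, Chga and Cck were below background on both arrays, and Atoh1 and Piezo2 were below background on the VEGF array and at 32.4 and 27.0 on the wild-type array. Isl1 (43.3 against 8.89) and Syp (27.5 against 12.0) were above background only on the VEGF array, at log2 bounds of 1.13 and 0.47. Of 6 dermal papilla markers, 2 were above background on each array, with sums of 60.9 against 77.4, and Corin, Alx4, Rspo3 and Hhip were below it on both. Melanocyte markers were above background for 5 of 6 on the VEGF array and 3 of 6 on the wild-type array, with sums of 204 against 382. These counts depend on the unlike backgrounds, 11.3 on the VEGF array and 19.8 on the wild-type array. Mlana was lower on the VEGF array (15.3 against 18.2) yet above background only there. Schwann cell markers were above it for 4 of 4 and 3 of 4, with sums of 256 against 303. Members of the melanocyte and Schwann lists went both ways. Sox10, in both lists, was above background only on the VEGF array (33.7 against 18.4), and Mbp was higher there (117 against 96.5). Dct, Tyrp1, Pmel, S100b and Ngfr were lower there. Of these 4 lists, the Merkel list alone had its higher sum on the array where Sox2 was higher, and that sum was mostly Krt8 and Krt18; the part of these cells in the Sox2 ratio was not tested.

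Pitx1 had 2 probe sets. The brighter, 1449488_at, had a signal of 581 on the VEGF array against 236 on the wild-type array, 2.46-fold higher (log2 ratio 1.30). The other, 1419514_at, had 342 on the VEGF array against 197 on the wild-type array, 1.74-fold higher (log2 ratio 0.80). They went the same way and differed by 0.50 on the log2 scale, while 39.8% of the 2888 genes with 2 such probe sets differed by as much or more. Only the brighter probe set passed 2-fold, and it did so under all settings (1.22 to 1.48), whereas the other stayed under 2-fold under all of them (0.73 to 0.99). Pitx1 is also a gene of limb mesenchyme. Fibroblast markers were above background for 6 of 6 on the VEGF array and 5 of 6 on the wild-type array, where Pdgfra was not, with summed signals of 2642 against 1119. Col3a1 (1235 against 490) and Col1a2 (942 against 324) made up most of the sum on each array. Dcn alone went the other way (72.3 against 91.3). The part of fibroblasts in the Pitx1 ratio was not tested.

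Trp63 had 4 probe sets, all lower on the VEGF array. The brightest, 1418158_at, for which the annotation gives a RefSeq mRNA as the source, had a signal of 1587 on the VEGF array against 2706 on the wild-type array, 1.71-fold lower (log2 ratio -0.77, SD at this signal 0.32). Lower signals came from 1452027_a_at, with 73.7 on the VEGF array against 105 on the wild-type array (log2 ratio -0.51), and 1451876_a_at, with 42.9 against 55.5 (log2 ratio -0.37). The last was less than the SD of 0.50 between probe sets at that signal. The remaining probe set, 1459581_at, stood apart, with 45.5 on the VEGF array against 260 on the wild-type array, 5.72-fold lower (log2 ratio -2.52, SD 0.42). It was the only one of the 4 past 2-fold, on a side that 4.58% of the probe sets of the middle signal tertile also passed (4.45% passed on the higher side).

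The Trp63 probe sets thus spanned 2.14 on the log2 scale. Of 494 genes with 4 probe sets above background on both arrays, 17 (3.44%) spanned as much, against a median span of 0.85. Without 1459581_at the other 3 spanned 0.40, with a median ratio of -0.51. The annotation does not say which exons or which p63 forms a probe set reads, so the wide span cannot be assigned to one form. Keratinocyte markers, which Trp63 accompanies in basal cells, were above background for 8 of 8 on both arrays, with summed signals of 26524 on the VEGF array against 29303 on the wild-type array. The basal keratin genes Krt5 (7875 against 8352) and Krt14 (8571 against 8990) had log2 ratios of -0.08 and -0.07 by their brightest probe sets, while the 2 other Krt14 probe sets gave -0.71 and -0.12. The other markers went both ways. Krt15, a keratin of basal and bulge cells (999 against 2806, log2 ratio -1.49), and Itga6 (-0.71) were lower on the VEGF array. Higher there were Cd34 (751 against 430, 0.80), Cdh1 (0.37), Epcam (0.25) and Itgb4 (0.22). Cd34 and Itga6 encode antigens used in the sort, so their presence above background is no separate sign of these cells.

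Klf4 had 2 probe sets far above background. The signals of 1417394_at were 4832 on the VEGF array and 4825 on the wild-type array, a log2 ratio of 0.00. Those of 1417395_at were 2236 on the VEGF array against 1689 on the wild-type array, 1.32-fold higher (log2 ratio 0.40, SD at this signal 0.32). The 2 probe sets differed by 0.40, and 48.7% of genes with 2 such probe sets differed by as much or more. Neither passed 2-fold under any setting, with ranges of 0.00 to 0.39 and 0.38 to 0.77. With the spread between mice unmeasured, this does not show that Klf4 was equal in the genotypes.

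**Figure D2:**
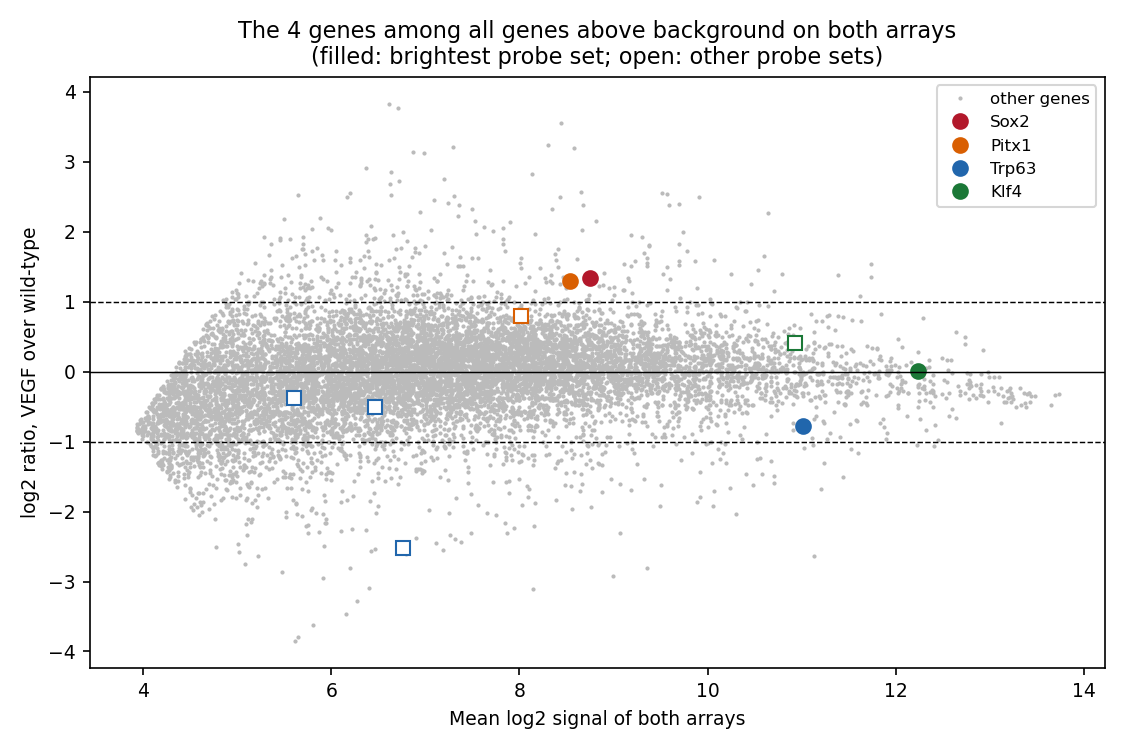
Log2 ratio of the VEGF array over the wild-type array (vertical axis) against the mean log2 signal of both arrays (horizontal axis), for 11233 genes above background on both arrays (grey) and for every probe set of the 4 genes (filled for the brightest, open for the others). Dashed lines mark 2-fold. Sox2 and the brighter Pitx1 probe set lie above the upper line, 1459581_at of Trp63 far below the lower one, and both Klf4 probe sets between the lines.

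Relatives of the 4 factors went both ways, with more of them lower on the VEGF array. Log2 ratios lay below 0 for 9 of 13 Sox, 15 of 19 Klf and Sp, and 2 of 2 Pitx and p53 family genes. Of 18 measured Sox genes, 13 had a fold or a bound, of which 1 passed 2-fold on the higher side and 3 on the lower side in the VEGF array (background 3.87% and 8.53%). Their median log2 ratio was -0.55, where all genes had -0.04. With loess normalization the Sox median was -0.01. With an offset of 50 after matching the array medians, it was -0.05 with 0 genes 2-fold lower. That setting is called the offset below, but it includes the matching, which by itself raises every log2 ratio. Sox4, a factor of progenitor survival, was 2.46-fold lower (1546 against 3795), and its 5 other probe sets with a fold lay between -1.93 and -0.60. Sox9, which hair follicle stem cells require, was 2.07-fold lower (336 against 695, other probe set -0.91). Sox7, a factor known from endothelium, was 2.01-fold lower (265 against 532, other probe set -1.75). After centring the ratios, 1 of these 3 stayed past 2-fold. Sox11, an embryonic and neural factor, was 2.62-fold higher (178 against 67.9), but its 4 other probe sets with a fold lay between -0.15 and 0.75.

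In the Klf and Sp family 19 of 22 measured genes had a fold or a bound, with 1 past 2-fold on the higher side, 3 on the lower side (background 3.87% and 8.53%) and a median log2 ratio of -0.26, which was 0.07 with the offset of 50. Klf5, a factor of proliferating keratinocytes, had 1704 on the VEGF array against 1568 on the wild-type array (log2 ratio 0.12), while its other probe set with a fold gave -1.16. Sp6, a factor of ectodermal organs, was 2.03-fold higher (86.9 against 42.9), but another of its probe sets gave -1.02, and with the median over probe sets 0 genes of the family passed on the higher side. The lower ones lay near background: Sp4 was at least 3.23-fold lower (10.6 against 36.6), Klf15 at least 2.38-fold lower (1.94 against 27.0), and Sp7, a bone factor, 2.17-fold lower (14.4 against 31.3). With the higher of the 2 backgrounds used on both arrays, 0 Klf or Sp genes were 2-fold lower. Of the closest relatives of Pitx1 and Trp63, the eye and brain factor gene Pitx3 had 33.6 against 43.9 (log2 ratio -0.39), and the p53 family gene Trp73 had 76.7 against 115 (log2 ratio -0.58, other probe set -1.17).

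Of 15 measured genes listed as p63 targets, 14 had a fold, 0 passed 2-fold on the higher side and 1 on the lower side (background 3.87% and 8.53%). The list does not part genes that p63 activates from genes that it represses. Their median log2 ratio was -0.08, against -0.04 over all genes, and was 0.02 and 0.03 after quantile and loess normalization and 0.29 with the offset. The lower one was Fras1, a basement membrane protein gene, at low signal (22.0 on the VEGF array against 51.6 on the wild-type array, log2 ratio -1.23). It was not 2-fold lower after quantile or loess normalization or with the offset. Next in size were Itga6, which encodes the hemidesmosomal α6-integrin used in the sort (2421 against 3952, log2 ratio -0.71), Fgfr2, a keratinocyte growth factor receptor gene (243 against 392, -0.69), and Dlx3, a homeobox gene of the suprabasal layers (17.9 against 26.5, -0.57). Of 7 measured genes whose products act on p63 protein or share its control, 0 were 2-fold apart (background 3.87% higher and 8.53% lower), with a median log2 ratio of 0.11. With centred ratios or the offset of 50, 1 passed on the higher side. The ubiquitin ligase gene Nedd4 had the largest ratio (2209 against 1155, 0.94, other probe sets 0.13 and 0.25). It was followed by the p53 ligase gene Mdm2 (346 against 238, 0.54), the ubiquitin ligase subunit gene Fbxw7 (230 against 199, 0.21) and Ppp1r13l, an inhibitor of p53 family proteins (564 against 523, 0.11). Other probe sets of Ppp1r13l lay between -0.50 and 0.01, and those of Hipk2 between 0.10 and 0.34. Itch had 0.03 by its brightest probe set, but another of its probe sets gave -1.07.

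Differentiation genes, on the side of Klf4, were set beside the nearly equal signal of its brighter probe set. Of 19 transcription factor genes of keratinocyte differentiation, 4 passed 2-fold on the higher side and 3 on the lower side in the VEGF array (background 3.87% and 8.53%), and the median log2 ratio was 0.22, or -0.02 with the stricter signal filter. Grhl3, a factor of barrier formation, was 4.19-fold higher (402 against 96.1) and Ehf, an ETS factor of epithelia, 2.43-fold higher (191 against 78.4, other probe sets 1.15 and 1.26). The other higher ones, named after their values were seen, were Ovol2, 2.32-fold (79.3 against 34.2), and Zfp750, which lies between p63 and Klf4 in human keratinocytes, 2.14-fold (226 against 106). Gata3, a factor of the inner root sheath, was 2.72-fold lower (75.4 against 205) and Maf 2.36-fold lower (985 against 2326, other probe sets with a fold between -1.74 and -0.61). Cebpb, a factor of the suprabasal layers, was 2.16-fold lower (1993 against 4298), while its other probe set gave -0.87. On the lower side 0 of the 19 passed 2-fold with the offset of 50, and 1 with the median over probe sets. Of 17 terminal differentiation products with a fold, 10 passed 2-fold on the higher side and 0 on the lower side (background 3.87% and 8.53%), and the median log2 ratio was 1.19. The largest ratios were those of Tgm3 (7.12-fold), Sprr1a (5.84-fold), Cnfn (5.33-fold) and Lor (3.60-fold), while Krtdap was nearly equal (6754 against 7354). Sprr genes have close relatives, so single members are uncertain.

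Of the genes that accompany Sox2 and Klf4 in pluripotent cells, 9 of 15 measured were below background on both arrays. Among them were Pou5f1 (2.74 on the VEGF array and 11.6 on the wild-type array) and Nanog (0.58 and 1.44), the core partners of Sox2 in embryonic stem cells, named after their values were seen. The 6 others included 0 genes 2-fold apart (background 3.87% higher and 8.53% lower) and had a median log2 ratio of -0.18. That median was 0.04 after quantile normalization, with 1 gene past 2-fold on the higher side, 0.06 after loess, with 2 genes, and 0.14 with the median over probe sets. Myc, the brightest, had 502 against 588 (log2 ratio -0.23). Esrrb had 27.3 against 39.3 (-0.52), and Fgf4 46.0 against 57.3 (-0.32). Tfcp2l1 was at least 1.81-fold higher (36.0 against 3.10) and Tbx3 at least 1.43-fold higher (28.3 against 15.5), both above background only on the VEGF array.

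**Figure D3:**
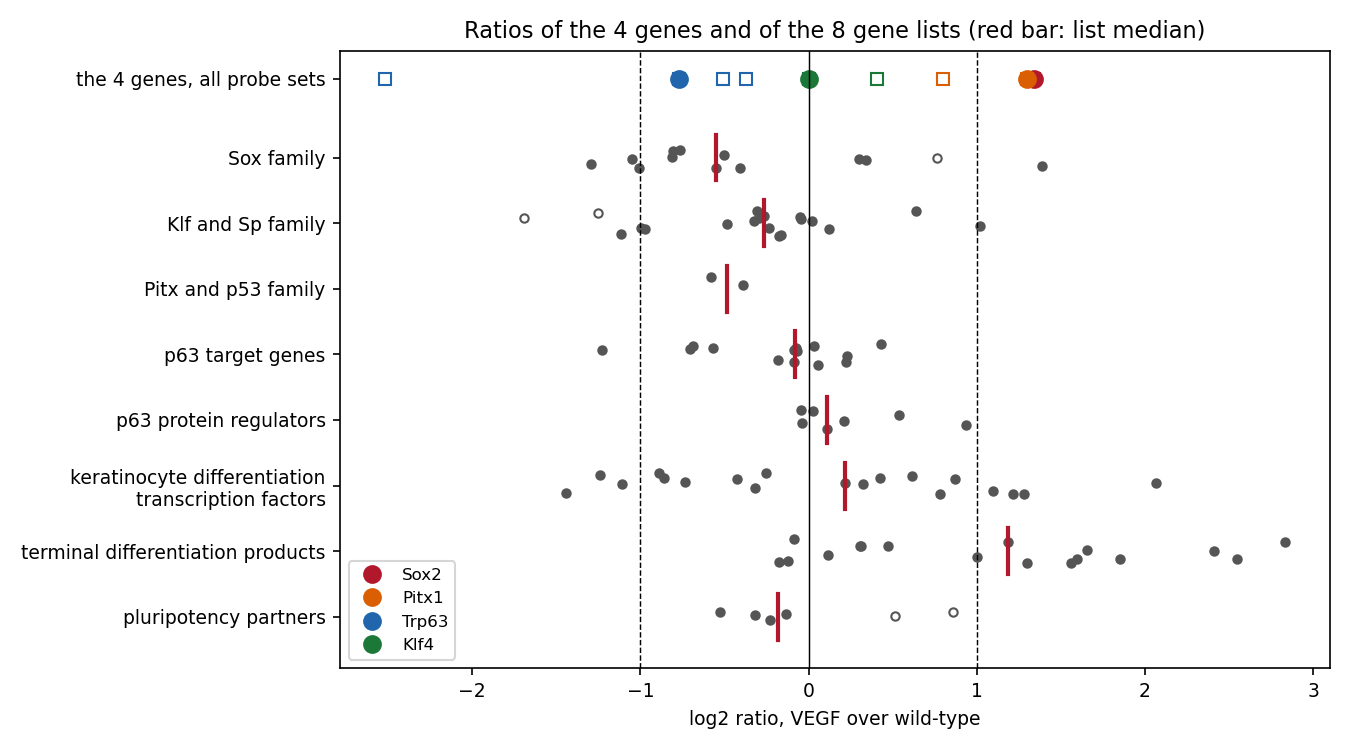
Log2 ratio of the VEGF array over the wild-type array (horizontal axis) for the probe sets of the 4 genes (top; circles for the brightest, squares for the others) and for the genes of 8 lists (filled points for folds, open points for bounds, red bars for medians). Dashed lines mark 2-fold. The terminal differentiation products have a median of 1.19, and the other 7 medians lie between -0.55 and 0.22.

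For each of the 4 genes the 3 genes with the nearest pair of log2 signals on the 2 arrays were found by the straight-line distance, among 10834 genes above background on both arrays once clone and predicted-gene names were left out. This likeness covers 2 arrays and the brightness of probe sets, not amounts of transcript. Nearest to Sox2 were Sprr2h, a cornified envelope gene (704 on the VEGF array against 302 on the wild-type array, distance 0.16), Dpysl2, a cytoskeletal protein gene (625 against 291, 0.17), and Cep55, a gene of cytokinesis (610 against 296, 0.21). Nearest to Pitx1 were Myof, a membrane repair gene (544 against 236, 0.09), Serpinb1a, a protease inhibitor gene (565 against 220, 0.11), and Ehd2, a caveolar ATPase gene (534 against 224, 0.14). Nearest to Trp63 were the lysosomal membrane gene Lamp2 (1497 against 2483, 0.15), the non-coding Gas5 (1434 against 2569, 0.16) and Oxct1, a gene of ketone body use (1777 against 2829, 0.18). Klf4 had the closest neighbours, the nuclear transport GTPase gene Ran (4867 against 4810, 0.01), the 14-3-3 gene Ywhaz (5041 against 4919, 0.07) and Akr1a1, a reductase gene (4621 against 4696, 0.08).

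**Figure D4:**
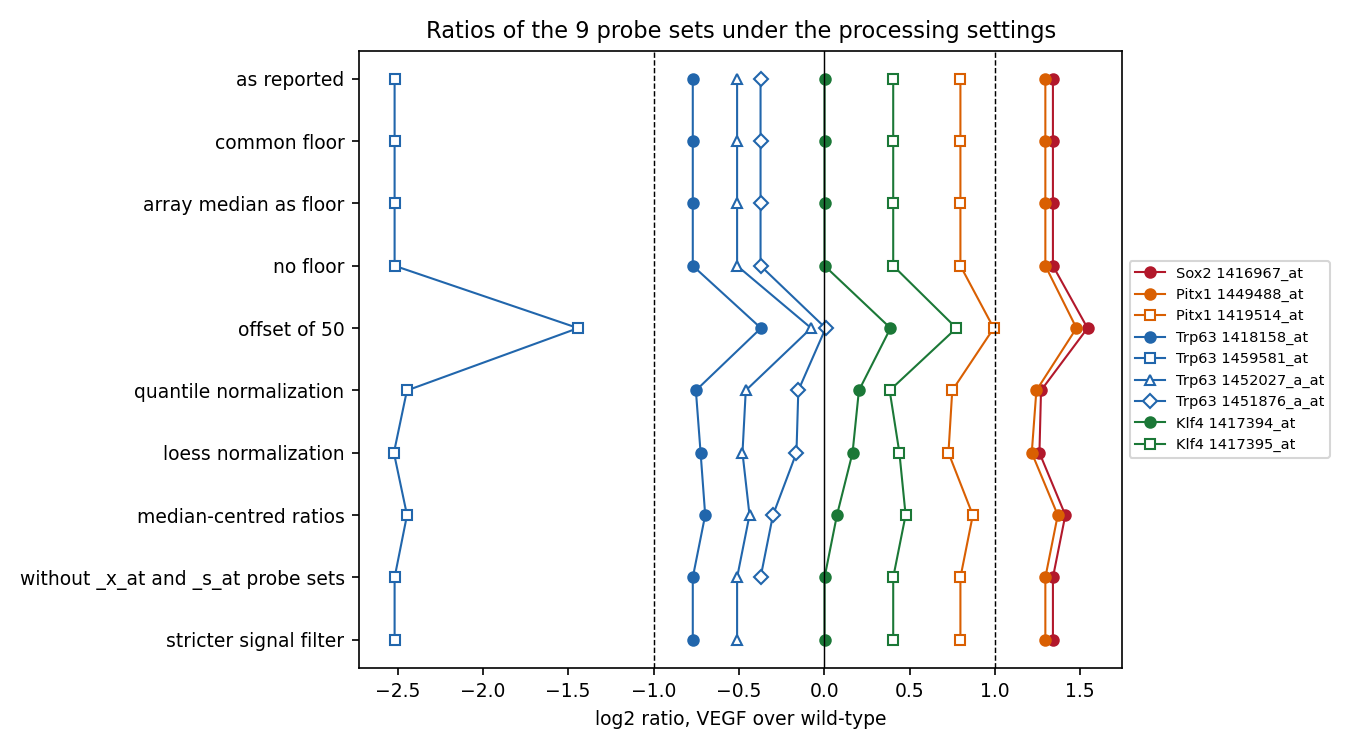
Log2 ratio of the VEGF array over the wild-type array (horizontal axis) of each of the 9 probe sets as reported and under 9 of the processing settings (vertical axis), with dashed lines at 2-fold. Sox2 stays between 1.26 and 1.54. The setting that matches the array medians and then adds an offset of 50 moves every probe set towards higher values. The largest move is that of 1459581_at of Trp63, from -2.52 to -1.44.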

How the data were processed

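The table held 45101 probe sets on 2 arrays. Per the submitters' processing notes the authors used MAS5, and the values they deposited are on a log2 scale; no source used here gives the software version or the scaling target. Both arrays had a 2% trimmed mean of 100.04 after anti-logging. Probe sets with a single annotated gene and no control role numbered 34945, of which 34741 had a gene ID in the GRCm38.p6 gene table.

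Each gene was represented by its brightest probe set (mean log2 signal over both arrays), and signals were floored at each array's background. Where 1 array alone was above background, the fold is a bound, written "at least". Named from each list were the 4 largest ratios in size and the brightest gene. The members, gene lists and settings were chosen with earlier results of these data known. The procedure was tested on simulated data. The moves simulated there were larger than most ratios given here, and the moved genes were picked from brighter ones. That test therefore does not vouch for small ratios or dim probe sets. The 10 other settings changed the floor, normalization, probe set choice or signal filter. Python 3.11.15, pandas 2.3.3 and statsmodels 0.14.6 were used.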

Additional observations from a re-analysis of the deposited data

How the results depend on the processing

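The ratios of Sox2, Pitx1, Trp63 and Klf4 kept their sign under all 10 settings, although that of Klf4 was 0.00 as reported. The count of their probe sets at least 2-fold apart was 3 under the 9 settings that give one. Settings that only changed the floor, filtered on signal or left out probe sets by suffix did not move these 4 ratios. Those settings are therefore no check on the ratios. With an offset of 50 after matching the array medians, the Trp63 ratio was -0.37 and the Klf4 ratio 0.39. Of the listed genes 15 were 2-fold apart, all higher, where 26 had been (16 higher, 10 lower). The medians matched were signals of 17.3 on the VEGF array (background 11.3) and 22.6 on the wild-type array (background 19.8). At the brightest probe sets of Klf4 and Trp63 an added 50 changes little, so their moves come mainly from the matching. In that setting the dimmest Trp63 probe set, 1451876_a_at, turned to 0.01 from -0.37, and it was left out by the stricter signal filter. The median over the genes with a value in a setting was 0.14 higher than as reported in the offset setting and 0.11 higher with loess normalization. Relative to the median of the offset setting itself, the Trp63 ratio there was -0.47 and the Klf4 ratio 0.29. Over all genes, 472 passed 2-fold on the higher side and 1041 on the lower side, so that 31.2% of them were higher. That share was 86.2% with the offset (473 and 76), 61.3% with loess (803 and 507), 51.1% with quantile normalization, 49.9% with the stricter filter (297 and 298) and 43.1% with the common floor. Without a floor the counts were 1675 and 2770. The genes with a value were not the same in each setting. They numbered 12198 as reported, 18193 with the offset or without a floor, 13300 with loess and 8068 with the stricter filter. Shares and medians therefore also differ by the genes counted. Without a floor the median was -0.08. No paired analysis was possible because each genotype had 1 array. Sox2 rests on 1 probe set, and signals near background, as in the dim Trp63 probe sets, limit the precision.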
